A study of Mus musculus with 2 samples.

Results

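Axon guidance ligands and receptors were followed across neuron types of the mouse paraventricular hypothalamus (PVH), a region that controls pituitary hormone release and appetite. The members were the gene rows for Slit1, Slit2, Slit3, Ntn1, Ntn4, Ntn5 and Dcc, and all whose symbol begins with Sema, Plxn, Nrp1, Nrp2, Epha, Ephb, Efna, Efnb, Robo, Ntng, Unc5a, Unc5b, Unc5c or Unc5d. This gave 74 of 31053 genes, of which 71 were protein coding and 3 were antisense genes of Plxna4 (Plxna4os1, Plxna4os2 and Plxna4os3). Unc5cl was taken by its symbol, although it is not a netrin receptor.

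Growing axons are steered by 4 classical families of secreted or membrane-bound cues. Semaphorins act through plexins, with neuropilins as co-receptors of the secreted class 3 semaphorins; ephrins act through Eph receptor tyrosine kinases; Slits repel through Robo receptors; and netrins attract through Dcc and repel through Unc5 receptors. In the adult brain many of these genes stay expressed, and they are known to act at synapses and on dendrites as well as on axons. Magnocellular oxytocin and vasopressin neurons send axons to the posterior pituitary, and parvocellular Crh and Trh neurons send axons to the median eminence.

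The nuclei came from 17 mice aged 4 weeks, all carrying Sim1-Cre and a Cre-dependent Sun1-GFP nuclear envelope reporter, and GFP-positive nuclei were sorted from the PVH. Of the mice, 7 had no Otp alteration (Sim1-Cre; Sun1-GFP), 4 carried a floxed Otp allele over wild type (Sim1-Cre; Sun-GFP; Otpfl/+) and 6 carried OtpQ153R over wild type (Sim1-Cre; Sun1-GFP; OtpQ153R/+). The mice of a genotype were pooled, all pools went into 1 droplet library, and the pools are told apart by hashtags named Ctrl, KD and Q153R. KD is not spelled out in the labels and was matched to the floxed genotype by elimination, so each pool is named below by its hashtag label.

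After filtering, 4752 neurons with exactly 1 hashtag and 27411668 unique molecular identifiers (UMIs) were kept, with a median of 5326 UMIs per nucleus and a range of 565 to 29974. Gates on UMIs of the defining peptide or of Gad1, Gad2 and Slc32a1 gave 144 Oxt, 208 Avp, 94 Crh, 184 Trh, 235 Sst and 312 GABA neurons. A further 3526 neurons passed no gate and are called ungated, and 49 that passed more than 1 gate were left out of the classes. Levels are CPM, the UMIs of a gene scaled to the total of all gene UMIs in the same nuclei. Sim1, which defines the sorted lineage, stood at 353 to 922 CPM in the 5 peptide classes, 433 CPM in ungated neurons and 110 CPM in the GABA class. Of the ungated neurons, 14.4% lay in clusters with little Sim1 or led by astrocyte genes, and this share was 20.5% in nuclei labelled Ctrl, 13.9% in KD and 8.19% in Q153R. Ungated neurons also made up 73.0% of the 452 nuclei of cluster 6, led by Crh. They made up 61.9% of the 617 nuclei of cluster 17, led by Gad1. The ungated reference for the Crh and GABA classes therefore includes neurons that cluster with those classes. Otp stood at 50.4, 81.0 and 114 CPM in nuclei labelled Ctrl, KD and Q153R outside the GABA class. Otp was thus lowest in the Ctrl pool, and the KD label did not go with less Otp RNA. Whether Otp UMIs can check the match of labels to genotypes was not tested.

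The promoters of 4 members on which the results turn are shown: Slit2 and Slit3, the ligands high in both the Oxt and Avp classes, and Sema3c and Sema3e, high in the Crh class and uneven between pools. Each is the first RefSeq window listed for its gene, from 250 bases before to 50 bases after the transcript start on GRCm38.p6, plus strand. Any other windows of these genes are not shown. Capitals mark ACGTG or its reverse complement CACGT, the core that Sim1 with its partner Arnt2 is known to bind; both strands were searched, and the 2 forms overlap in CACGTG. The windows are chr5:47982905-47983204 for Slit2, chr11:35121206-35121505 for Slit3, chr5:17574566-17574865 for Sema3c and chr5:14025026-14025325 for Sema3e.
Slit2: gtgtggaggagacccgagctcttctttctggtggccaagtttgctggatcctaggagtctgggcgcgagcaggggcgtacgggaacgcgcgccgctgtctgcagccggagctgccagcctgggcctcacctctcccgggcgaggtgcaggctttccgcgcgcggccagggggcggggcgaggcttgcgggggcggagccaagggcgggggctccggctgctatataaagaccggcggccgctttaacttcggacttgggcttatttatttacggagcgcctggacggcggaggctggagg
Slit3: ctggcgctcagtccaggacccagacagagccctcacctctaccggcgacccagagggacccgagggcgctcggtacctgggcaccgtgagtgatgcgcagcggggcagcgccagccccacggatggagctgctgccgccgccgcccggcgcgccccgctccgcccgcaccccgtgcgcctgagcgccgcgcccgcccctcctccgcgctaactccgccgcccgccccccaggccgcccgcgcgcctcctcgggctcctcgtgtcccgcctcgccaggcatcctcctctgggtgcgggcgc
Sema3c: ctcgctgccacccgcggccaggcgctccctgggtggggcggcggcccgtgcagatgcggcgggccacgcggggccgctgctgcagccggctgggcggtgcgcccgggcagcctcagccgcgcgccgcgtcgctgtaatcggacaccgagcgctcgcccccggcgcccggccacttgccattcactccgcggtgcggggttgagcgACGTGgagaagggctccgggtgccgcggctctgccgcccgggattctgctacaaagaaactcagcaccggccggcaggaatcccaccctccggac
Sema3e: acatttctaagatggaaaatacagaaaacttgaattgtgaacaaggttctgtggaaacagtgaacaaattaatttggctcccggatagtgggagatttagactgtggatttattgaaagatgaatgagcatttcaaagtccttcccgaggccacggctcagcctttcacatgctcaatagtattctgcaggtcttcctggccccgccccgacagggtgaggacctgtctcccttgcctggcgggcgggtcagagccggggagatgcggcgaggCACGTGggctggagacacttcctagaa
The letters are present at 1 place in the Sema3c and in the Sema3e window and are not in the Slit2 and Slit3 windows. Over the table, 6447 of 32851 promoters of this length held them (19.6%), and so did 13 of the 77 promoters (16.9%) listed for the 61 members that matched. A match is a description of the letters, not of binding.

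The members took 355614 UMIs, or 1.30% of all neuron UMIs. All but Robo4, which had 0 UMIs in kept neurons, were detected, and 13 members had fewer than 20 UMIs. The 10 most abundant held 77.3% of the members' UMIs. CPM went with gene span, with a Spearman correlation of 0.81 across the 73 detected members, which share 1 library. Levels are therefore compared between genes only as CPM per 100 kb of gene span, a scale on which the leaders of the families were as follows. Efnb3, a transmembrane ephrin (chromosome 11, 69554092 to 69560205, minus strand, GRCm38), stood at 455 CPM per 100 kb. Unc5c, a repulsive netrin receptor (chromosome 3, 141465216 to 141834924, plus strand), followed at 401, and Epha5, an Eph receptor for ephrin-A ligands, stood at 280.0. Sema4g led the semaphorins at 206, Slit2 the Slits at 183, Robo1 the Robos at 178 and Ntng1, a membrane-anchored netrin relative, the netrins at 138. Plxnc1, the Sema7a receptor, led the plexins at 90.4 and Nrp2 was the higher neuropilin at 89.0, so the semaphorin receptors stood lowest among the family leaders on this scale. The scale raises short genes such as Efnb3, whose unscaled level was 26.6 CPM in the Avp nuclei of the Avp-led cluster. Whether CPM rises in proportion to span was not tested, so the order holds for this scale alone.

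Each class was set against ungated neurons over the 3 pools with edgeR's quasi-likelihood test, with the pool as a block, and a gene was called at a Benjamini-Hochberg adjusted p under 0.05 and at least a 2-fold change. Where no other setting is named, adjusted p-values below are from this test over 7668 genes, and fold changes are given with their standard errors. The filter on low counts kept 39 members, which had a median of 2636 UMIs against 1319.5 over all genes kept; the other 35 members could not be tested. The 39 were 10 semaphorins, 5 plexins, both neuropilins, 3 ephrins, 8 Eph receptors, all 3 Slits, 2 Robos, 2 netrins and 4 of the Unc5 and Dcc group. Each class is compared with the same ungated nuclei, so the contrasts are not independent of each other. The pools share 1 library and differ in genotype, so a p-value measures the spread over these 3 pools. Where pools are said below not to overlap, the genes had been called on the same pool sums. Such statements describe the values and add no support to the calls. The share of all genes whose pools do not overlap was not counted.

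More members were called in the Oxt and Avp classes than in any other class. In the Oxt class 20 of 39 members were called (51.3%), 4 higher and 16 lower, where 8.71% of all genes were called, 3.61% higher and 5.1% lower. In the Avp class 24 were called (61.5%), 5 higher and 19 lower, where 12.1% of all genes were called, 3.44% higher and 8.66% lower. The median log2 fold change of the members was -0.57 in the Oxt class and -1.0 in the Avp class, beside 0.01 over all genes in each; against the mean of the other classes the medians were -0.09 and -0.66. The Crh class had 12 members called, 4 higher and 8 lower (30.8%, against 14.3% of all genes, 7.04% higher and 7.29% lower). The Sst class had 8, all lower (20.5%, against 6.03% of all genes, 4.03% lower; 5 higher and 5 lower against the mean of the other classes), and the Trh class 2, both lower (5.13%, against 1.23% of all genes, 0.691% lower). In the GABA class 0 members were called by edgeR and 0 by DESeq2, with 7 and 4 members at an unadjusted p under 0.05, where 0.835% of all genes were called, 0.378% higher and 0.456% lower. The reference for this count includes the ungated neurons of the Gad1-led cluster 17. Against the mean of the other classes, 5 members were called (12.8%, against 3.61% of all genes). In all, 31 of the 39 members were called in at least 1 class; Efnb3, Ntn4, Plxnb2, Sema4a, Sema4b, Sema4d, Sema4g and Sema6a were called in none. Summed over the 6 astrocyte markers, RNA stood at 50.99 CPM in the Oxt class, 28.5 in Crh, 25.0 in GABA, 10.9 in Avp, 7.66 in Sst, 4.99 in Trh and 11.9 in ungated neurons, and its part in the results was not tested. With only the Sim1-expressing clusters in the peptide classes and the reference, 19, 24, 13, 2 and 9 members were called in the Oxt, Avp, Crh, Trh and Sst classes.

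The Oxt gate took neurons mainly of 2 clusters. Of its 144 nuclei, 90 lay in the Oxt-led cluster 10 and 46 in cluster 16, led by Esr2 and Foxp2, among clusters built with the members left out of the genes used. Oxt RNA stood at 9632 CPM inside cluster 10 and 8034 CPM outside it. The members differed more: Slit2 stood at 1669 CPM inside and 399.7 outside, Slit3 at 643 and 197, Unc5c at 2735 and 614, Robo2 at 985 and 2307, Epha6 at 102 and 629, and Ntng1 at 16.8 and 896. The other gates were less mixed, with 194 of 208 Avp, 76 of 94 Crh and 211 of 235 Sst nuclei in the cluster led by their peptide. With these 4 classes limited to those clusters, 24, 25, 16 and 12 of 37 members were called in the Oxt, Avp, Crh and Sst classes, where 12.1%, 13.3%, 18.4% and 7.72% of all genes were called. In the Oxt class the call of Nrp1 was lost (log2 fold change -0.90) and Epha7, Epha10, Ntng1, Plxna2 and Plxna4 were called lower as well, and the members' median was -1.04. In the Sst class Nrp1, Sema5a and Slit2 were then called higher (1.2, 1.03 and 1.11), so its calls were no longer all lower.

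**Figure D1:**
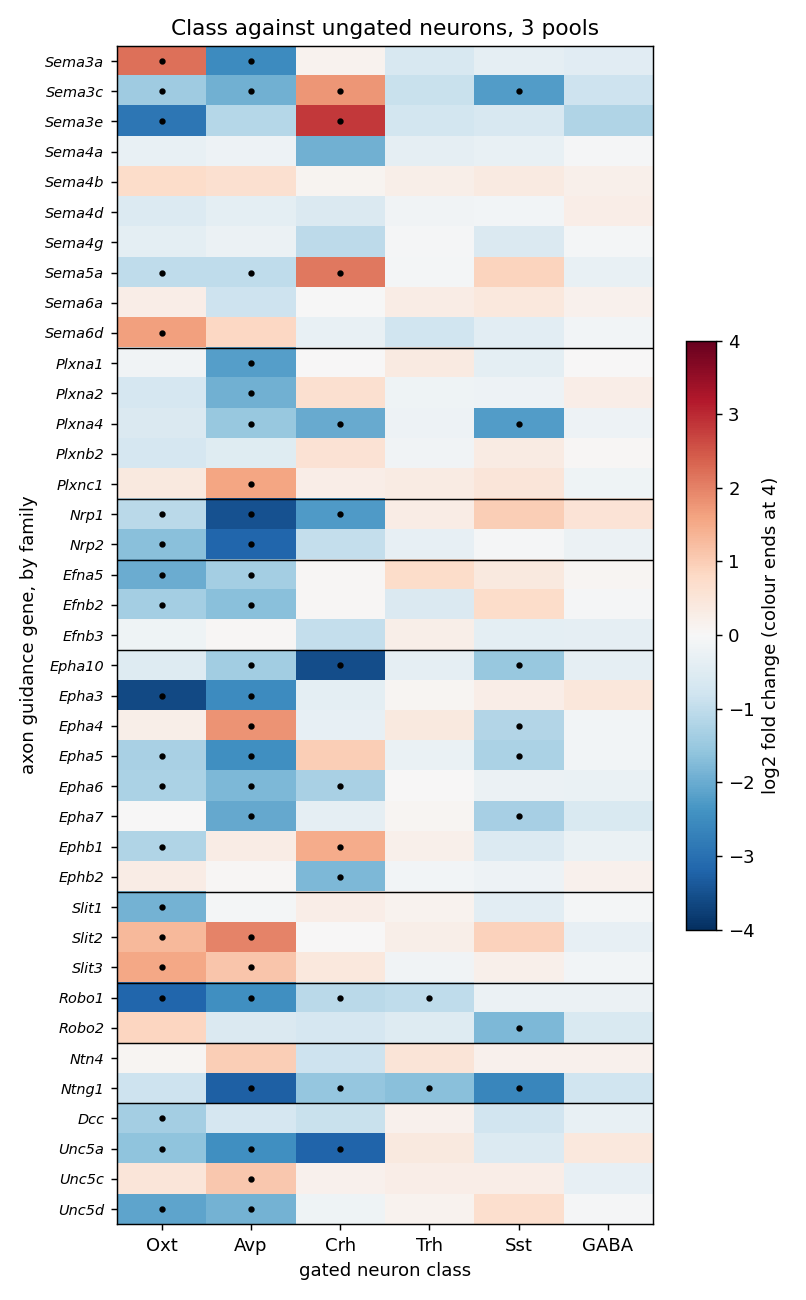
Log2 fold change of each of the 39 tested members (rows, grouped by family) in each gated class against ungated neurons (columns), shown as colour that ends at 4 in either direction, with a dot on called values. The Oxt and Avp columns hold the most calls (20 and 24) and the GABA column holds 0.

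Among the ligands, both Slits that are called higher in the Oxt and Avp classes are repellents for Robo-bearing axons. Slit2 stood at 943, 1637 and 1149 CPM in the Oxt class of the nuclei labelled Ctrl, KD and Q153R, and at 464, 474 and 548 CPM in ungated neurons (log2 fold change 1.31 ± 0.19, adjusted p = 4.23e-06). In the Avp class Slit2 reached 1746, 2291 and 1836 CPM (log2 fold change 1.99 ± 0.19, adjusted p = 5.63e-10). Every pool of both classes thus lay above every ungated pool. The Oxt nuclei outside cluster 10, given above, however held less Slit2 than any ungated pool. Slit3 stood at 416, 468 and 573 CPM in the Oxt class and 147, 171 and 179.7 CPM in ungated neurons (log2 fold change 1.53 ± 0.19, adjusted p = 2.86e-07). In the Avp class Slit3 stood at 393, 309 and 361 CPM, again without overlap (log2 fold change 1.11 ± 0.20, adjusted p = 4.06e-05). In Slit3 too, the Oxt nuclei outside cluster 10 stood only a little above the ungated pools. Slit1 differed: in the Oxt class it was lower (log2 fold change -1.89), with 36.6, 21.3 and 17.6 CPM against 104, 94.3 and 101 CPM, and in the Avp class it was not called (-0.09).

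The Slit receptor Robo1 was low in the Oxt and Avp classes, in which Slit2 and Slit3 were called higher, but the pairing did not hold in every class. Robo1 (chromosome 16, 72308306 to 73046095, plus strand) stood at 146, 219.6 and 137 CPM in the Oxt class against 1429, 1651 and 1404 CPM in ungated neurons (log2 fold change -3.17 ± 0.20, adjusted p = 5.42e-14). It was lower also in the Avp class, at 167, 299 and 344 CPM (log2 fold change -2.47), and in the Crh class, at 585, 714 and 618 CPM (-1.06). No pool of these classes reached an ungated pool. In the Crh class, however, Slit2 was unchanged (0.02). In the Sst class Slit2 was raised under the 2-fold limit (0.91, adjusted p = 0.000841) while Robo1 was not lower (-0.25, adjusted p = 0.425). The Oxt nuclei outside cluster 10 held less Slit2 and Slit3 than those inside it, yet Robo1 there was 286 CPM. Robo2, the other Robo tested, did not follow Robo1: it stood at 1361, 1941 and 1269 CPM in the Oxt class against 755, 874 and 857 CPM, with a log2 fold change of 0.87 (adjusted p = 0.000131), which is under the 2-fold limit, and 0.25 in cluster 10 alone. In the Sst class Robo2 was lower, at 245, 226 and 219 CPM (log2 fold change -1.81 ± 0.18, adjusted p = 8.22e-09).

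Of the 10 semaphorins tested, 5 were called in at least 1 class against ungated neurons, beside 31 of all 39 members. The share of all genes called in at least 1 class was not counted. Sema3a, a secreted repellent known for its part in guiding GnRH neurons, stood at 106, 109.8 and 127 CPM in the Oxt class, against 21.9, 22.7 and 29.6 CPM in ungated neurons (log2 fold change 2.20 ± 0.22, adjusted p = 2.2e-09). In the Avp class it was lower, at 4.97, 5.11 and 2.53 CPM (log2 fold change -2.52 ± 0.51, adjusted p = 0.000259). All 3 Oxt pools lay above all ungated pools, and all 3 Avp pools lay below them. Sema6d, a transmembrane semaphorin that binds Plxna1, was higher in the Oxt class, at 666, 1165 and 917 CPM against 268, 366 and 241 CPM (log2 fold change 1.63 ± 0.16, adjusted p = 1.93e-09). Its lowest Oxt pool, Ctrl, still exceeded the highest ungated pool.

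In the Crh class 3 other semaphorins were higher. Sema3e, which binds Plxnd1 without a neuropilin, stood at 145, 310.1 and 269 CPM in the Crh class against 28.7, 54.7 and 30.4 CPM in ungated neurons (log2 fold change 2.83 ± 0.32, adjusted p = 3.81e-08). Sema5a, a transmembrane semaphorin with thrombospondin repeats, stood at 1314, 1219 and 1054 CPM against 316, 288 and 334 CPM (log2 fold change 2.10 ± 0.17, adjusted p = 4.83e-11), and Sema3c at 178, 281 and 116 CPM against 47.1, 72 and 71.4 CPM (log2 fold change 1.77 ± 0.29, adjusted p = 1.97e-05). Every Crh pool was above every ungated pool for all 3 genes. Sema3e was lower in the Oxt class, at 6.1, 0 and 7.03 CPM from 5 UMIs (log2 fold change -2.90 ± 0.70, adjusted p = 0.00286), and Sema3c was lower in the Oxt (-1.42), Avp (-1.91) and Sst classes. In the Sst class Sema3c stood at 12.2, 17.1 and 9.66 CPM (log2 fold change -2.22 ± 0.43, adjusted p = 0.000308). Sema3a, Sema3c, Sema3d and Sema3e lie on the plus strand of chromosome 5, at 13125414 to 13602565, 17574281 to 17730268, 12383385 to 12588948 and 14025276 to 14256689 on GRCm38. Sema3d was not in the fit; it stood at 23.5 CPM in ungated neurons, 9.44 CPM in the Oxt class and 0.841 CPM in the Avp class, with 0 UMIs in the Crh class.

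**Figure D2:**
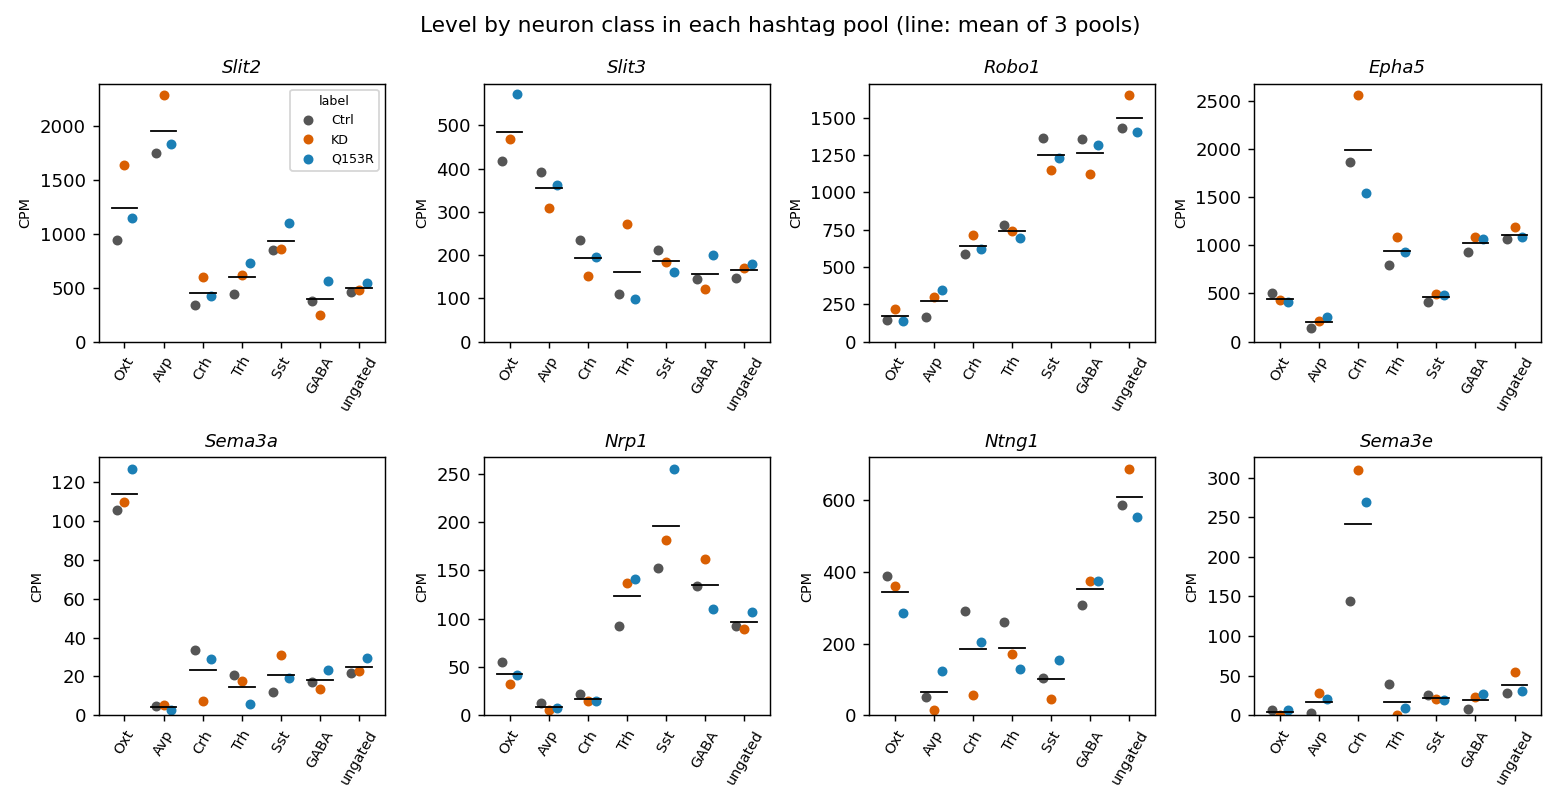
CPM (vertical axis, linear from 0) of 8 members by class (horizontal axis), with a point for each of the nuclei labelled Ctrl, KD and Q153R and a line at the mean of the 3 pools. The Sema3a points of the Oxt class (106 to 127 CPM) stand above those of every other class, and the Robo1 points of the Oxt and Avp classes lie lowest.

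The neuropilins and the tested class A plexins, which are receptors for class 3 semaphorins, were low in the Avp class. Nrp1, the co-receptor of Sema3a, stood at 12.4, 5.11 and 7.58 CPM in the Avp class against 92.5, 88.9 and 107 CPM in ungated neurons (log2 fold change -3.49 ± 0.34, adjusted p = 6.44e-10). Nrp2, which binds Sema3c and Sema3f, stood at 2.49, 12.8 and 22.7 CPM against 114, 104.8 and 121 CPM (log2 fold change -3.16 ± 0.32, adjusted p = 1.44e-09). Plxna1, Plxna2 and Plxna4, the signalling partners of the neuropilins, were lower too, with log2 fold changes of -2.20, -1.91 and -1.53. Plxna3 was not in the fit and stood at 14.3 CPM in the Avp class and 13.7 CPM in ungated neurons. Plxnd1, the receptor named above for Sema3e, was not in the fit either. The Avp class thus had 5 of 5 tested genes of the neuropilins and class A plexins called lower. In that class 19 of all 39 members and 8.66% of all genes were called lower. Plxnc1, by contrast, was higher there, at 393, 350.0 and 359 CPM against 121, 117 and 135 CPM (log2 fold change 1.57 ± 0.16, adjusted p = 1.72e-09).

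Of these 5 genes, 2 were called lower in the Oxt class (Nrp2, Plxna2 and Plxna4 in cluster 10 alone), 2 in the Crh class and 1 in the Sst class. Of all 39 members, 16, 8 and 8 were called lower in these classes, and of all genes 5.1%, 7.29% and 4.03%. Nrp1 was lower in the Oxt class (-1.08) and in the Crh class, at 22.3, 14.4 and 14.5 CPM (log2 fold change -2.27 ± 0.43, adjusted p = 0.000139). In the Sst class Nrp1 stood at 152, 182 and 254 CPM, with a log2 fold change that was just under the 2-fold limit (adjusted p = 3.59e-05). Nrp2 was lower in the Oxt class (-1.66), and its value in the Crh class (-0.95) did not reach 2-fold. Plxna4 was lower in the Crh class, at 50.1, 57.7 and 131 CPM against 319, 386 and 342 CPM (log2 fold change -2.00 ± 0.27, adjusted p = 1.09e-06), and in the Sst class, at 75.1, 54.8 and 83.7 CPM (log2 fold change -2.24 ± 0.21, adjusted p = 2.79e-09). In the Trh and GABA classes none of Nrp1, Nrp2, Plxna1, Plxna2 and Plxna4 was called, with log2 fold changes between -0.31 and 0.55. Reads of Plxna4 and of its antisense genes cannot be told apart without strand, which is not given in the sources used here.

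Among the netrin receptors, Unc5c was called higher in 1 class, and Unc5a, Unc5d and Dcc were called lower in the Oxt class. Unc5c was higher in the Avp class, at 3181, 2782 and 2844 CPM against 1382, 1362 and 1416 CPM (log2 fold change 1.09 ± 0.15, adjusted p = 5.09e-07). In the Oxt class it was raised under the 2-fold limit (0.49, adjusted p = 0.0175). The Oxt nuclei of cluster 10, given above, came close to the Avp pools, and those outside it lay below the ungated pools. Unc5d, a related receptor that also binds Flrt proteins, was lower in the Oxt class, at 400.2, 301 and 260.1 CPM against 1418, 1468 and 1330.2 CPM (log2 fold change -2.12 ± 0.17, adjusted p = 2.08e-11), and in the Avp class (-1.90). Dcc, the attractive netrin receptor, was lower in the Oxt class, at 776, 638 and 636 CPM against 1804, 1765 and 1681 CPM (-1.37). Unc5a was lower in the Oxt (-1.62) and Avp (-2.45) classes. It was also called in the Crh class, but there it rested on 1 UMI, a ratio of CPM of 0.094 (95% interval 0.002–0.529), and the call was lost without the nuclei labelled KD (adjusted p = 0.136).

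Ntng1, which binds the synaptic adhesion protein Lrrc4c, was lower in 4 of the 6 classes. It stood at 52.2, 15.3 and 124 CPM in the Avp class (log2 fold change -3.26 ± 0.33, adjusted p = 1.7e-09) and 104.8, 44.6 and 155 CPM in the Sst class (log2 fold change -2.60 ± 0.31, adjusted p = 2.04e-07), against 586, 685 and 552 CPM in ungated neurons. In the Trh class Ntng1 stood at 261, 171 and 129 CPM (log2 fold change -1.69 ± 0.28, adjusted p = 0.000257), and in the Crh class its log2 fold change was -1.54. No pool of these classes reached an ungated pool. In the Oxt class Ntng1 was not called (-0.83), but 363 of its 374 UMIs lay outside cluster 10, and in cluster 10 alone the log2 fold change was -5.18 ± 0.45 (adjusted p = 5.07e-11). The highest Ntng1 cluster, led by Tcf7l2, was counted among ungated neurons but held Sim1 at 6.41 CPM; with Sim1-expressing clusters alone the log2 fold changes were -3.45, -2.61 and -1.58 in the Avp, Sst and Trh classes. In the Trh class Robo1 was the only other member called, at 781, 741 and 691 CPM (log2 fold change -1.02 ± 0.17, adjusted p = 0.000249). Both Trh calls were lost against the mean of the other classes, where Ntng1 stood at -0.18 and Robo1 at 0.18 (adjusted p = 0.787 and 0.513).

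Of the 8 Eph receptors tested, 4 were lower in the Oxt class, while in the Avp class 5 were lower and 1, Epha4, was higher. Of all 39 members, 16 and 19 were lower in these classes, beside 5.1% and 8.66% of all genes. In the Avp class 5 members and 3.44% of all genes were higher. Epha4, which binds both ephrin classes, stood at 326, 212 and 229.8 CPM in the Avp class against 68.9, 70.8 and 81.5 CPM in ungated neurons (log2 fold change 1.79 ± 0.18, adjusted p = 6.96e-10). Epha3 was lower in the Oxt class, at 8.13, 3.54 and 0 CPM from 5 UMIs against 62.3, 59.1 and 53.7 CPM (log2 fold change -3.62 ± 0.67, adjusted p = 0.00015), and in the Avp class, at 2.49, 15.3 and 12.6 CPM (log2 fold change -2.52 ± 0.53, adjusted p = 0.000452). Both classes were also low in Epha5 (-1.30 and -2.46) and Epha6 (-1.25 and -1.79). Of the ligands, Efna5, a membrane-anchored ephrin, stood at 213, 145 and 162 CPM in the Oxt class against 701, 708 and 676 CPM (log2 fold change -1.99 ± 0.19, adjusted p = 1.33e-09), and it was lower in the Avp class (-1.36). Efnb2 was lower in both (-1.34 and -1.66). Efna5 and 3 EphA receptors were thus called lower in both the Oxt and Avp classes.

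In the Crh class 1 Eph receptor was called higher and 3 lower, and in the Sst class 4 were called lower, several of them shared with the Avp class. Of all genes, 7.04% were called higher and 7.29% lower in the Crh class, and 4.03% lower in the Sst class. Ephb1 was higher in the Crh class, at 451, 685 and 393 CPM against 183, 207 and 225 CPM (log2 fold change 1.47 ± 0.17, adjusted p = 6.41e-08), and Epha5 there reached 1866, 2560.5 and 1541 CPM with a log2 fold change of 0.99, just under the limit. Ephb2 was lower in the Crh class, at 22.3, 14.4 and 29.1 CPM against 79.7, 90.4 and 85.1 CPM (log2 fold change -1.79 ± 0.42, adjusted p = 0.00187). Epha10, an Eph receptor without kinase activity, had 2 UMIs in the Crh class, a ratio of CPM of 0.075 (0.009–0.273; adjusted p = 0.000884). Doubling the gates ended the calls of Ephb2 (adjusted p = 0.183) and Epha10 (adjusted p = 0.139). In the Sst class Epha10 stood at 31.4, 13.7 and 6.44 CPM against 56, 61.1 and 57.6 CPM (log2 fold change -1.51 ± 0.34, adjusted p = 0.00188), and that call was lost with doubled gates as well (adjusted p = 0.0715). Epha4 (-1.18), Epha5 (-1.27) and Epha7 (-1.32) were lower in the Sst class. Epha10 and Epha7 were lower in the Avp class too (-1.40 and -2.05), and Epha6 in the Crh class (-1.31) as in the Oxt and Avp classes. The Crh and Sst classes were not tested against the other peptide classes one by one.

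A direct contrast of the Oxt and Avp classes, added after the class results were seen, showed that the 2 classes differed from each other in 14 of 39 members, 10 higher in Oxt and 4 lower, where 7.25% of all genes were called (5.09% higher and 2.16% lower). Sema3a had the largest difference (log2 fold change 4.71 ± 0.45, adjusted p = 8.56e-10). Its co-receptor Nrp1 was also higher in the Oxt class, at 54.9, 31.9 and 42.2 CPM against 12.4, 5.11 and 7.58 CPM (log2 fold change 2.41 ± 0.47, adjusted p = 0.000317). Of the 14 calls, 9 were kept with both classes limited to the clusters led by their peptide (Sema3a 4.93, Nrp1 2.78), and 5 were lost. Ntng1 stood at 388, 361 and 285 CPM in the Oxt class against 52.2, 15.3 and 124 CPM (log2 fold change 2.43 ± 0.37, adjusted p = 7.58e-06), but this difference rested on the Oxt nuclei outside cluster 10. Between the clusters alone Ntng1 turned to -0.95 ± 0.78 (adjusted p = 0.573), and Epha7 went from 2.06 to 1.15 (adjusted p = 0.153). The calls of Nrp2, Plxna2 and Robo2 were lost as well (2.02 with adjusted p = 0.136, 0.84 and 0.91), while Efna5, Robo1 and Sema5a were called lower in Oxt (-1.81, -1.27 and -1.29). Plxna1 was called too (2.04), but without the nuclei labelled Ctrl its adjusted p was 0.335 and without Q153R it was 0.0515.

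The other 4 called members were higher in the Avp class than in the Oxt class. Slit1 stood at 92, 102 and 85.9 CPM in the Avp class and 36.6, 21.3 and 17.6 CPM in the Oxt class (log2 fold change -1.80 ± 0.30, adjusted p = 3.19e-05). Epha4 had a log2 fold change of -1.54 for Oxt against Avp, and Plxnc1 of -1.17. Ephb1 stood at 239, 268 and 245 CPM in the Avp class and 71.1, 131 and 73.8 CPM in the Oxt class (log2 fold change -1.49 ± 0.22, adjusted p = 4.91e-06). For each of the 4, no pool of one class reached a pool of the other. Slit2 (-0.68) and Unc5c (-0.59) were lower in the Oxt class by less than 2-fold, and Slit3 (0.43, adjusted p = 0.245) was not distinguished. These values take the Oxt gate whole. As given above, its nuclei in cluster 10 held more Slit2, Slit3 and Unc5c than those outside it, so the values mix unlike neurons.

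The intracellular partners were taken from a list of 62 other genes of the pathway, of which 57 were tested. In the Oxt class 2 were higher and 4 lower, in the Avp class 1 and 5, in the Crh class 7 and 3, in the Trh class 1 and 1, in the Sst class 2 and 5, and in the GABA class 1 and 0. These are 10.5%, 10.5%, 17.5%, 3.51%, 12.3% and 1.75% of the genes tested, beside 8.71%, 12.1%, 14.3%, 1.23%, 6.03% and 0.835% of all genes, so in the Oxt, Avp and Crh classes the list lay near the background. Srgap1, a GTPase-activating protein that works downstream of Robo receptors, was higher in the Oxt class (log2 fold change 2.20, adjusted p = 2.4e-11). It was called higher in the Trh class too (1.11, adjusted p = 0.000202). Chn2, which encodes the Rac-inactivating protein beta-chimaerin, was lower in the Oxt (-4.81) and Avp (-4.06) classes. In the Avp class Dock1 (-2.92) and Vav3 (-2.69), which activate Rac, and Flrt2 (-2.10), an Unc5 ligand, were lower, and Rgma (1.59), a ligand of neogenin, was higher. In the Crh class Mical2 (1.61), Enah (1.49) and Pak3 (1.37), which act on actin, were higher, and Dpysl3 (-1.93), a collapsin response mediator, was lower.

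Neurons were also clustered with the members left out of the genes used, which gave 22 clusters, 20 of them with at least 50 nuclei. Clusters resolve neurons that the gates leave ungated, and their levels are given as a description. Sema3e was highest in cluster 6, led by Crh, at 214 CPM, or 10.1 times the level of all other neurons (8.86–11.5), and this cluster held 44.9% of its UMIs. Sema3d was highest in cluster 19, led by Hmcn1 and Drd3, at 132 CPM, or 7.91 times the other neurons (6.38–9.74). Sema3c was highest in cluster 12, led by Aox3 and Reln, at 247 CPM (6.05 times, 5.41–6.74). Sema3a was highest in cluster 10, led by Oxt, at 146 CPM (6.52 times, 5.25–8.03). Each of these class 3 semaphorin genes therefore had its highest level in a different cluster.

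Receptors reached their highest levels in further clusters. Robo2 was highest in cluster 16, led by Esr2, at 2795 CPM in all, with 2659, 2881 and 2877 CPM in nuclei labelled Ctrl, KD and Q153R, against 564, 687 and 689.7 CPM elsewhere. Robo1 was highest in cluster 12 at 3280.0 CPM and lowest in the Oxt-led cluster 10 at 111 CPM. Dcc and Unc5d were both highest in cluster 5, with Col19a1 and Lgr5 among its leading genes, at 4011 and 2776 CPM. Unc5c was highest in the Avp-led cluster 18 at 3087 CPM and lowest in cluster 12 at 623 CPM. Robo1 and Unc5c thus took opposite extremes in cluster 12. Ntng1 was highest in cluster 13, at 2667 CPM, followed by cluster 14 at 1902 CPM, and lowest in cluster 10 at 16.7 CPM.

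**Figure D3:**
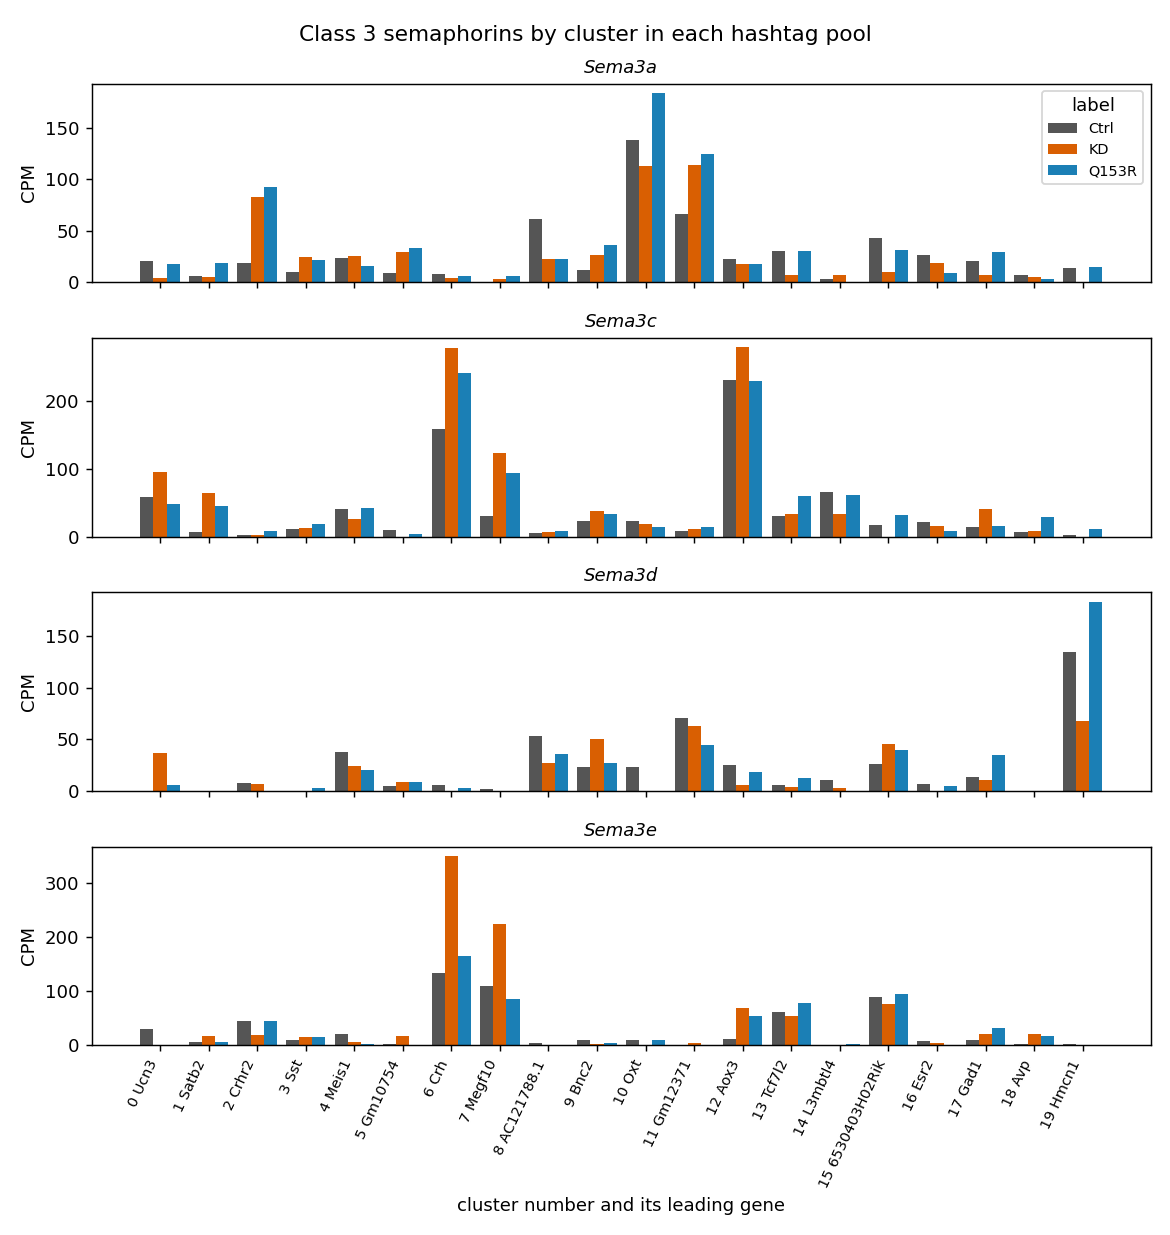
CPM (vertical axis, bars from 0) of Sema3a, Sema3c, Sema3d and Sema3e in each of the 20 clusters with at least 50 nuclei, 1 bar per pool, with each cluster given by its number and first leading gene. Sema3e peaks in the Crh-led cluster 6, where the nuclei labelled KD stood at 349.6 CPM and those labelled Ctrl at 133 CPM.

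The pools were compared over neurons outside the GABA class, with 1712, 1221 and 1507 nuclei and 9946630, 7923252 and 7625601 UMIs in nuclei labelled Ctrl, KD and Q153R. There was 1 pool per label, so no p-value is given, a gene counts as higher or lower past 1.5 times, and intervals are 95% intervals for counting error alone. Both comparisons with Ctrl share the Ctrl nuclei. Levels, shares and ratios given for a single cluster keep its GABA-class nuclei. Ratios called within clusters are taken over the Sim1-expressing clusters alone. They differ from the main ratios both by cluster and by the nuclei left out, and the 2 steps are not told apart. Ratios given outside 2 clusters leave out the GABA class but keep the clusters with little Sim1 or led by astrocyte genes. The median nucleus held 5394.5, 6017 and 4698 UMIs, and 67.3%, 80.4% and 47.3% of nuclei had at least 3 Xist UMIs and none from Y-linked genes. These shares run in the order of the median depths, and the labels give no sex. Astrocyte marker RNA stood at 10.6, 21.7 and 8.0 CPM. The part of depth, sex and astrocyte RNA in the ratios was not tested except where values are given.

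Most members were close to equal between the pools. For KD against Ctrl 50 members had enough UMIs, of which 2 were past 1.5 times, both higher (1.83% of all genes were past it, 0.75% higher and 1.08% lower), and 40 lay within 1.2 times. For Q153R against Ctrl 1 of 48 members was past 1.5 times, higher (1.37% of all genes, 0.502% higher and 0.864% lower), and 40 lay within 1.2 times. For Q153R against KD 2 of 49 were past it, 1 in each direction (2.25% of all genes, 1.14% higher and 1.1% lower). The ratios ran from 0.754 to 1.81, from 0.813 to 1.67 and from 0.602 to 1.58. Of the 62 other pathway genes, Vav3 alone was past 1.5 times for KD against Ctrl (1.63), and it stood at 1.08 within clusters; for Q153R, 0 of 60 were past it against Ctrl and 0 of 59 against KD.

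**Figure D4:**
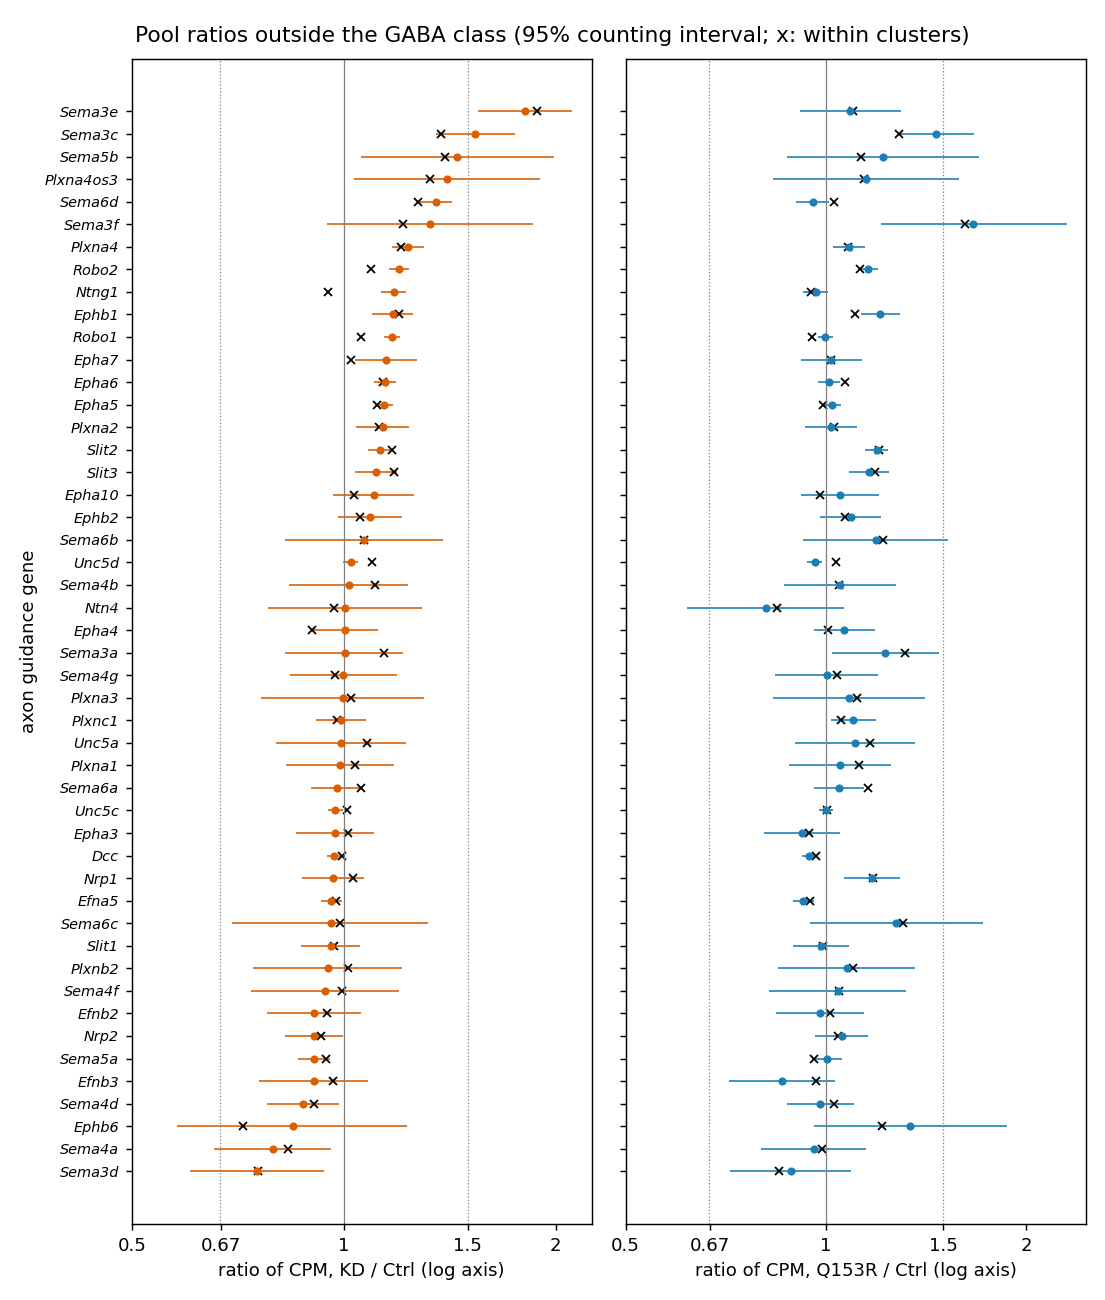
Ratio of CPM of members for KD against Ctrl and Q153R against Ctrl on a log axis, with 95% counting intervals, for the 48 members tested in both, in neurons outside the GABA class. Crosses are the ratios within clusters, over the Sim1-expressing clusters alone. Most points lie within 1.2 times, and Sema3e stands at 1.81 for KD.

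Sema3e had the largest ratio. It stood at 29.2 CPM (290 UMIs) in nuclei labelled Ctrl, 52.8 CPM (418 UMIs) in KD and 31.7 CPM (242 UMIs) in Q153R, so KD alone was high. The ratio was 1.81 for KD against Ctrl (1.55–2.11) and 0.602 for Q153R against KD (0.511–0.706). It was 1.88 within clusters (1.60–2.21) and 1.93 among nuclei with Xist UMIs (1.62–2.29). The KD level was high in the 2 clusters where the gene was highest. In the Crh-led cluster 6 the levels were 133, 349.6 and 165 CPM, a ratio of 2.62 for KD against Ctrl (2.06–3.36) and 1.24 for Q153R (0.935–1.65). With nuclei thinned to 2571 UMIs, 23.2%, 40.8% and 25.1% of its nuclei held a Sema3e UMI in Ctrl, KD and Q153R, against 3.93% of the neurons of other clusters. Thinning left out 475 neurons over all clusters, and without it the shares in cluster 6 were 29.9%, 46.5% and 28.4%. In cluster 7, led by Megf10 and Ppp1r17, the ratio was 2.05 for KD (1.41–3.0) and 0.787 for Q153R (0.483–1.26). Outside these 2 clusters, with the clusters low in Sim1 kept, it was 1.11 for KD (0.872–1.42) and 0.988 for Q153R (0.764–1.28). Among these other clusters, cluster 12 held 7, 45 and 33 Sema3e UMIs in Ctrl, KD and Q153R, so that KD stood at 6.47 times Ctrl (2.89–17.0) and Q153R at 5.18 times (2.26–13.9). In 7 of 17 clusters the KD level of Sema3e exceeded the Ctrl level, and the difference between clusters was not tested.

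Sema3c was higher in both other pools than in Ctrl. It stood at 43.7 CPM (435 UMIs) in nuclei labelled Ctrl, 67.3 CPM (533 UMIs) in KD and 64.1 CPM (489 UMIs) in Q153R. Against Ctrl, KD stood at 1.54 times (1.35–1.75) and Q153R at 1.47 times (1.29–1.67), the latter under the 1.5 limit. Within the Sim1-expressing clusters both were smaller, at 1.37 (1.21–1.56) and 1.29 (1.13–1.47), so the KD value no longer passed 1.5 times. In its highest cluster, cluster 12, the ratio was 1.21 for KD (0.970–1.51) and 0.993 for Q153R. In the Crh-led cluster 6 it was 1.76 for KD (1.38–2.24) and 1.53 for Q153R (1.2–2.0). Outside these 2 clusters, with the clusters low in Sim1 kept, it was 1.29 for KD (1.03–1.60) and 1.54 for Q153R (1.25–1.90). The part of the uneven share of such clusters between pools was not tested.

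The 2 remaining members past the limit rested on fewer UMIs. Sema3f, a ligand that acts mainly through Nrp2, stood at 7.24, 9.59 and 12.1 CPM, from 72, 76 and 92 UMIs, in nuclei labelled Ctrl, KD and Q153R. Its ratio was 1.67 for Q153R against Ctrl (1.21–2.30), 1.62 within clusters, and 1.45 with nuclei of doublet-rich neighbourhoods removed, which is under the limit. Ephb6, an Eph receptor without kinase activity, stood at 7.44, 6.31 and 9.97 CPM, from 74, 50 and 76 UMIs. Its ratio was 1.58 for Q153R against KD (1.09–2.30) and 1.43 among nuclei with Xist UMIs (0.867–2.34). Sema6d, with many more UMIs, stood at 286, 387 and 274 CPM, and its KD ratio of 1.35 (1.29–1.42) stayed under the limit.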

How the data were processed

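Single-nucleus RNA was measured in 1 droplet library that pooled all mice. The authors deposited UMI counts per gene and barcode, made with Cell Ranger 6.0.0 on mm10 per the submitters' processing notes, while the matrix header names 7.0.0. Its annotation, strand and intron settings: not given in the sources used here.

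Of 6173 barcodes, 6157 had 500 or more genes and a mitochondrial share below 5%, and the rest were dropped. Hashtag thresholds left 4904 with exactly 1 tag; 1124 with several tags (18.3%) were removed as doublets and 129 had none. Nuclei whose neuron markers did not exceed those of every glial or vascular type were left out (152). An expected 583 doublets within pools remain, and removing nuclei with doublet-rich neighbourhoods was an alternative. Gates were at least 10 UMIs and 2000 CPM for Oxt and for Avp, 5 and 500 for Sst, 3 and 200 for Crh and for Trh, and 3 and 300 for the GABA genes.

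UMI counts were summed per class and pool and tested with edgeR 4.0.16 (TMM factors, filterByExpr, pool as block; R 4.3.3), with DESeq2 1.42.0 as an alternative. The script was tested on simulated data. The pool block was used because the classes of a pool come from the same mice. Pool comparisons are ratios of CPM for genes with at least 50 expected UMIs, with exact conditional intervals. Ratios within clusters are Mantel-Haenszel ratios over the Sim1-expressing clusters, outside the GABA class. Clusters came from scanpy 1.11.5 (2000 variable genes, 30 components, Leiden resolution 1). Coordinates are GENCODE vM21.

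Named members were up to 5 called in each direction per class, up to 6 past the limit per pool comparison, the leader of each family per 100 kb, and Sema3a with its receptors; others were chosen after their values were seen. The members and lists were chosen with earlier results of these data known.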

Additional observations from a re-analysis of the deposited data

How the results depend on the processing

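Of the counts of members called or past the limit, 94 values under alternatives stayed within 1.5 times and 16 did not. Of the named members' class fold changes, 502 kept their direction at an adjusted p under 0.05. A further 12 kept direction without that p-value, and 2 reversed. The 2-fold limit was not applied in these 3 counts, so a value counted as kept may have fallen under it. Against the mean of the other classes, 13 members were called in the Oxt class, 4 in the Trh class and 5 in the GABA class, and Robo1 in the Trh class turned to 0.18. With classes limited to the clusters led by their peptide, Ntng1 for Oxt against Avp turned to -0.95. In the GABA class 1 was called with doubled gates and 1 with no filter. Leaving out 1 pool gave 16 to 18 calls in the Oxt class, 21 to 26 in Avp, 12 to 14 in Crh, 1 to 3 in Trh (1 without KD), 8 to 9 in Sst and 0 in GABA. With no replicate block for the pool, the counts were 20, 24, 13, 2, 8 and 0. For KD against Ctrl the count past the limit was 4 among nuclei with Xist UMIs, 1 within classes and 1 within Sim1-expressing clusters. For Q153R against Ctrl it was 2 among nuclei with Xist UMIs, 2 at a floor of 20 expected UMIs and 2 with the GABA class. For Q153R against KD it was 5 at that floor, 1 with the GABA class, 1 with doubled hashtag thresholds and 1 with doublet-rich neighbourhoods removed, where Sema3e stood at 2.13 for KD against Ctrl. The causes were not tested. The Oxt against Avp contrast and the limits to Sim1-expressing or peptide-led clusters were chosen after seeing the data. Depth limits the 35 untested members, and pools of 1 per label leave genotype, sex and pool effects that cannot be told apart.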

Other observations

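The 135 glial and vascular nuclei left out of the neurons (77 astrocyte, 36 oligodendrocyte and 15 oligodendrocyte precursor nuclei among them) held some members at higher levels than the neurons did. In oligodendrocyte precursor nuclei Sema3d stood at 770.0 CPM from 30 UMIs (520–1099), against 20.3 CPM in neurons, and Ntn1, a secreted netrin, at 282 CPM from 11 UMIs (141–505), against 4.01 CPM. In oligodendrocyte nuclei Sema4d stood at 427 CPM (324–551) and Sema6a at 552 CPM (434–691), against 67.6 and 125 CPM in neurons, and Plxnb3 at 80.9 CPM from 11 UMIs (40.4–145) against 0.255 CPM. In astrocyte nuclei Plxnb1 stood at 84.2 CPM (46.0–141) against 4.89 CPM and Ntng2 at 66.1 CPM (33.0–118) against 2.70 CPM. Intervals are 95% Poisson intervals over the summed UMIs of few nuclei from 1 library.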
